A study of Mus musculus with 2 samples.

Results

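Histone lysine demethylases remove methyl groups that methyltransferases place on histone tails. The genes examined here were *Kdm1a*, *Kdm2a*, *Kdm2b*, *Kdm3a*, *Kdm4a*, *Kdm4b*, *Kdm4c*, *Kdm5a*, *Kdm5b* and *Kdm6b*, 10 of the 24421 gene symbols in each count file. They were selected by symbol and not by a measured value, though earlier results of these data were known. All 10 were found in both libraries. RNA came from hematopoietic stem cells (HSCs), sorted from mouse bone marrow as CD150+ CD48- CD34- cells that were also Flt3-, lineage-negative, c-kit+ and Sca-1+. There were 2 libraries, 1 labelled WT (Ezh2 +/+ CreERT+/-) and 1 labelled Ezh2 KO (Ezh2 Δ/Δ CreERT+/-, called KO-labelled below since *Ezh2* counts do not show the deletion), both on C57BL/6. In each case CD45.2 marrow was transplanted into lethally irradiated CD45.1 recipients, all recipients received 100 µl of tamoxifen at 10 mg/ml on each of 5 days, and HSCs were collected 1 month later. The cells had therefore passed through transplantation, Cre activation and tamoxifen in both groups. Ages and the number of mice pooled were not given in the sources used here. With 1 library per group, no difference below has a replicate check, and since PCR copies were not told apart by molecular identifiers, every interval covers counting error alone.

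The demethylases fall into 2 chemical classes. *Kdm1a* encodes LSD1, a flavin-dependent amine oxidase that acts on mono- and dimethylated H3K4, while the other genes encode JmjC-domain enzymes that use iron and 2-oxoglutarate. KDM2 enzymes act on H3K36me1/2, KDM3 enzymes on H3K9me1/2, KDM4 enzymes on H3K9me3 and H3K36me3, KDM5 enzymes on H3K4me2/3, and KDM6 enzymes on H3K27me3, the mark that EZH2 writes. In blood cells LSD1 works with the repressors GFI1 and GFI1B, and KDM2B brings a variant Polycomb complex to CpG islands.

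The libraries were checked before the demethylases were compared. Gene counts totalled 5763118 (WT) and 4157280 (KO-labelled), and counts were divided by size factors of 1.17 and 0.858. *Ezh2* (chromosome 6) had 166 and 129 raw counts, or 142.5 and 150.3 normalised counts (log2 ratio 0.08, 95% interval -0.27 to 0.42). Gene-level *Ezh2* counts thus did not show the deletion, and counts over a whole gene do not resolve single exons. The HSC genes were present, and over the 13 tested the median log2 ratio was -0.06, with 0 called. *Xist* was at 801 counts in WT against 4, and 4 of 4 Y-linked genes listed were at 0 in WT against 106 to 275, so genotype label and sex of the cells cannot be told apart. RNA of genes listed as markers of other blood cells also differed. Summed normalised counts went from 10481 to 19184.5 for 13 granulocyte genes (6 called higher), from 10.3 to 3753 for 8 eosinophil genes (5 higher, including *Prg2* and *Epx*, both at 0 in WT), from 9065 to 11287 for 11 erythroid genes (4 higher) and from 239.4 to 490.6 for 11 B lymphoid genes (5 higher). Genes within a list did not all move one way. *Car2*, not called, made up most of the erythroid sum (8474 and 10010), and *Aqp1* (log2 ratio -0.32) and *Alas2* (-0.10) were below 0. Among granulocyte genes *Elane* was lower without reaching 2-fold (738.0 and 435.8 normalised counts; exact test, adjusted p = 2.2e-16), and *Prtn3* (-0.07) and *Ctsg* (-0.01) were near 0; these genes other than *Car2* were named after their values were seen. Sums were 269.5 and 261.0 for 9 monocyte genes (1 called higher, 1 lower) and 9462 and 8999 for 9 megakaryocyte genes (1 lower). Whether this RNA came from other cells or from the sorted HSCs was not tested. Fewer cells of a type and less RNA per cell cannot be told apart in such bulk samples. The part of other blood cells in the results below was not tested.

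The level of each demethylase was first compared per transcript length, as TPM (counts over the length of the longest annotated transcript, scaled to the same total in each library). *Kdm1a* stood highest, at 127 TPM in WT (95% Poisson interval 119 to 136) and 103 (94.9 to 113) in the KO-labelled library. Its level was 2.90 times that of the next gene in WT (95% interval 2.59 to 3.25) and 2.29 times in the other library (2.04 to 2.57). *Kdm4b* (43.9 and 41.2 TPM, WT first) and *Kdm5b* (43.7 and 45.2 TPM) came next and, with this length, did not differ from each other beyond counting error in either library. *Kdm3a* (31.9 and 25.5 TPM), *Kdm2a* (31.6 and 27.3), *Kdm4c* (29.4 and 25.8), *Kdm5a* (29.2 and 32.3) and *Kdm2b* (26.1 and 20.7) followed, and in WT no neighbours in this run of 5 genes differed beyond counting error. *Kdm4a* had 19.0 and 22.8 TPM. *Kdm6b* stood lowest, at 3.42 TPM in WT (2.56 to 4.48) and 5.66 in the other library (4.37 to 7.21), and *Kdm4a* was 5.55 times higher in WT (4.08 to 7.65). Among all genes tested with a length, 19.8% had a lower TPM than *Kdm6b* in the KO-labelled library, against 83.6% for *Kdm1a*. Taking the union of exons as the length kept *Kdm1a* first (99.9 and 81.3 TPM) and *Kdm6b* last (4.40 and 7.27 TPM) but reordered genes between them. With that length *Kdm4b* (55.1 and 51.8 TPM) lay above *Kdm5b* (30.9 and 32.0 TPM) in both libraries, so their near-equal levels rest on the choice of length, and *Kdm2b* had 16.7 and 13.2 TPM.

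**Figure D1:**
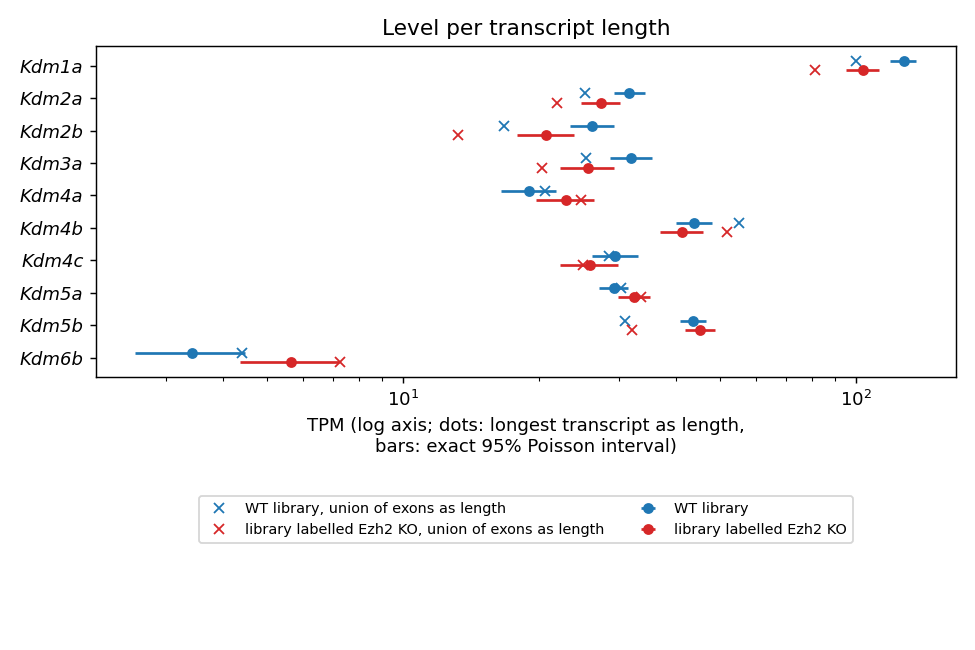
Level of each gene in TPM on a log axis in the WT library (blue) and the KO-labelled library (red); dots use the longest transcript as the length, bars are exact 95% Poisson intervals, and crosses use the union of exons. *Kdm1a* lies highest at 127 and 103 TPM and *Kdm6b* lowest at 3.42 and 5.66 TPM.

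The main comparison asked whether demethylase RNA differed between the 2 libraries. Of the 10 genes, 0 were called higher and 0 lower, where a call needs a difference of at least 2-fold and an adjusted p below 0.01 in an exact binomial test of the raw counts. The same rule called 2.8% of the 12588 genes tested higher and 2.3% lower. Without the fold threshold 1 gene passed, *Kdm1a*, on the lower side, against 11.3% of all genes lower and 9.68% higher. At an unadjusted p below 0.05 in the same exact test there were 2 higher (*Kdm5a* and *Kdm6b*) and 4 lower (*Kdm1a*, *Kdm2a*, *Kdm2b* and *Kdm3a*), while 19.7% and 21.2% of all genes were higher and lower. This test compares 2 libraries and not the conditions. The median log2 ratio (KO-labelled library over WT) was -0.13 over the 10 genes and -0.003 over all genes tested, with 4 genes above 0 and 6 below. Only *Kdm6b* exceeded 1.5-fold, as did 20.5% of all genes tested, a share that was larger among genes of low count.

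**Figure D2:**
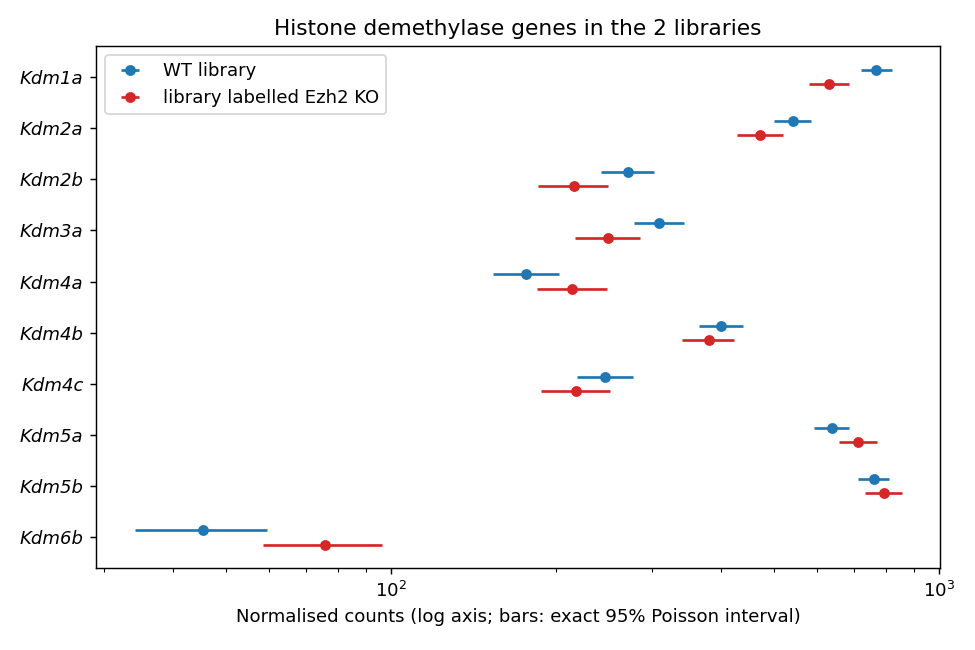
Normalised counts (log axis) of the 10 genes in the WT library (blue) and the KO-labelled library (red), with exact 95% Poisson intervals as bars. The intervals of the 2 libraries are apart for *Kdm1a* (719.4 to 820.9 and 578.4 to 685.9) and overlap for the other genes.

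To set these ratios beside genes of like expression, genes tested were divided into 10 groups by mean normalised count, and the robust SD of log2 ratios (the scaled median absolute deviation) was 0.60 in the group that holds *Kdm6b*, 0.34 in that of *Kdm2b*, *Kdm4a* and *Kdm4c*, 0.29 in that of *Kdm3a*, 0.25 in that of *Kdm4b* and 0.23 in that of *Kdm1a*, *Kdm2a*, *Kdm5a* and *Kdm5b*. Measured from its group's median, *Kdm6b* lay farthest out at 1.19 robust SDs, and 7 of the 10 genes were within 1. For each of the 10, between 25.0% and 81.7% of the genes in its group lay at least as far from the group median. The share of genes past 1.5-fold was 34.2% in the group of *Kdm6b*. It was between 3.26% and 8.66% in the other groups that hold these genes.

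**Figure D3:**
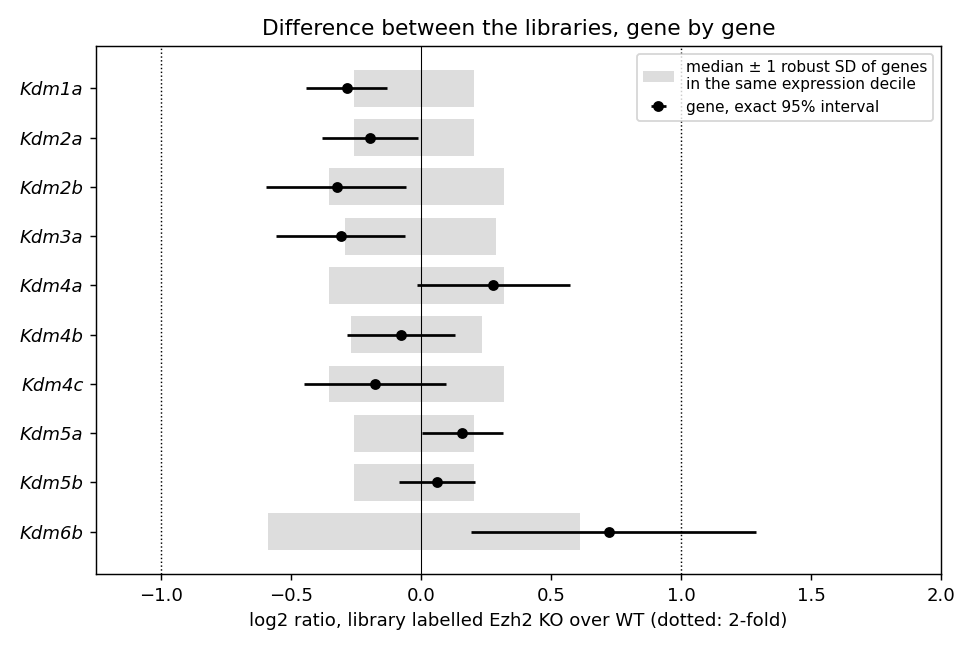
log2 ratio (KO-labelled library over WT) of each gene with its exact 95% interval, over grey bars that span the median ± 1 robust SD of genes in the same expression group; dotted lines mark 2-fold. Points run from -0.33 (*Kdm2b*) to 0.72 (*Kdm6b*), and none reaches 2-fold.

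Among enzymes that act on H3K4, *Kdm1a* and the KDM5 genes differed in sign. *Kdm1a* (chromosome 4, 136550540 to 136602723, minus strand, mm10) had 896 (WT) and 541 (KO-labelled) raw counts, which is 768.9 and 630.4 after normalisation. Its log2 ratio was -0.29 (95% interval -0.44 to -0.13; exact test, adjusted p = 0.00173), the only one of the 10 to pass that adjusted threshold, and 26.9% of genes in its expression group lay at least as far out. *Kdm5a* (chromosome 6, 120364124 to 120444574), which encodes an RB-binding H3K4 demethylase, had 743 and 611 raw counts, or 637.6 and 712.0 normalised counts (log2 ratio 0.16, 0.00 to 0.32). *Kdm5b* (chromosome 1, 134560171 to 134635285) had 886 and 680 raw counts, or 760.3 and 792.4 normalised counts (0.06, -0.09 to 0.21). The interval of *Kdm5b* included 0, and that of *Kdm5a* began at its edge. Exons of *Kdm5a* overlap those of *Ccdc77* on the opposite strand over 251 bp, and whether counting used strand was not stated.

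Both KDM2 genes had fewer normalised counts in the KO-labelled library, and neither passed the adjusted threshold. *Kdm2a* (chromosome 19, 4314419 to 4398285) had 630 and 405 raw counts, or 540.6 and 471.9 normalised counts (log2 ratio -0.20, -0.38 to -0.01). *Kdm2b* (chromosome 5, 122870665 to 122989823) had 315 and 185 raw counts, or 270.3 and 215.6 normalised counts (-0.33, -0.60 to -0.06), the lowest ratio of the 10. Its exons share 627 bp with *Rnf34* on the opposite strand, which had 388 and 211 raw counts. Summed over the pair, normalised counts were 810.9 and 687.5 (log2 ratio -0.24, -0.39 to -0.09).

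Enzymes of H3K9 methylation showed small differences in both directions. *Kdm3a* (chromosome 6, 71588972 to 71632990), a demethylase known as a target of hypoxia signalling, had 360 and 214 raw counts, or 308.9 and 249.4 normalised counts (log2 ratio -0.31, -0.56 to -0.06). *Kdm4a* (chromosome 4, 118136957 to 118180043) had 206 and 184 raw counts, or 176.8 and 214.4 normalised counts (0.28, -0.02 to 0.57). *Kdm4b* (chromosome 17, 56326062 to 56402870) had 467 and 326 raw counts, or 400.8 and 379.9 normalised counts (-0.08, -0.29 to 0.13). *Kdm4c* (chromosome 4, 74242497 to 74405860) had 287 and 187 raw counts, or 246.3 and 217.9 normalised counts (-0.18, -0.45 to 0.09). The 3 KDM4 genes together had 823.8 and 812.2 normalised counts (-0.02, -0.16 to 0.12), an interval that includes 0.

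*Kdm6b* encodes JMJD3, an inducible demethylase that removes the mark EZH2 places. It lies on chromosome 11 (69398508 to 69413675, minus strand). Raw counts were 53 in WT and 65 in the shallower KO-labelled library, or 45.5 (34.1 to 59.5) and 75.7 (58.5 to 96.5) normalised counts. The log2 ratio of 0.72 was the largest of the 10, with an interval from 0.19 to 1.29 that also holds a 2-fold difference, and the adjusted p of the exact test was 0.0256. Its counts were the lowest of the 10, which makes it the least precise value, and 25.0% of genes at its expression lay at least as far from their median. The antisense gene *Kdm6bos* covers 286 bp of its exons and no count of it was used here.

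**Figure D4:**
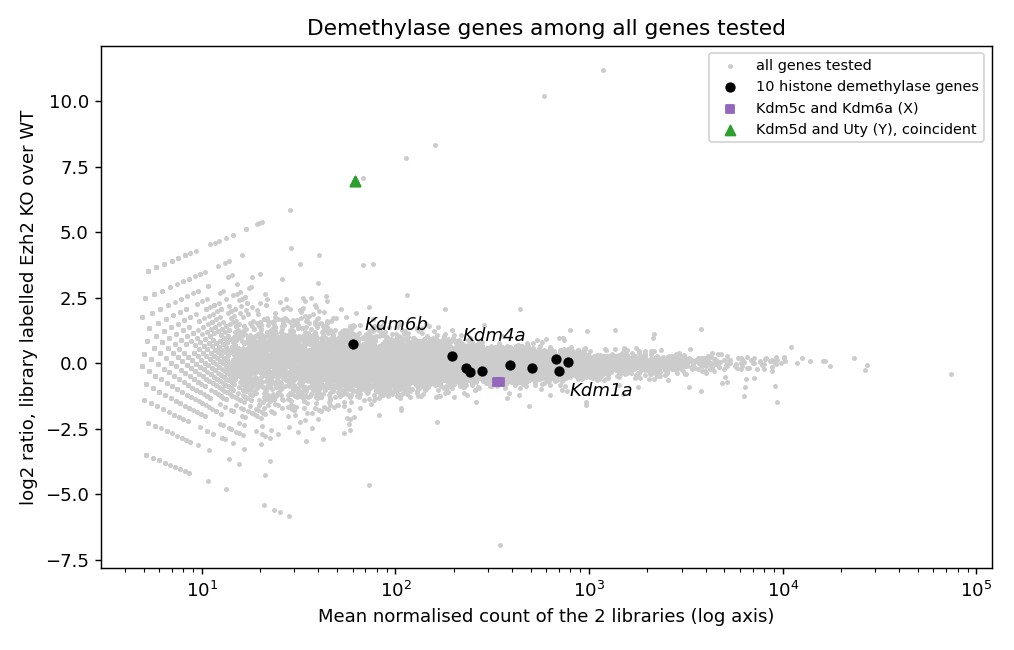
log2 ratio, on counts plus a pseudocount of 1, against mean normalised count (log axis) for all 12588 genes tested (grey), the 10 demethylase genes (black), *Kdm5c* and *Kdm6a* on X (purple) and *Kdm5d* and *Uty* on Y (green, coincident). The black points lie within the band of grey points of like expression, while the Y-linked pair lies far above it.

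Shares within a subfamily need no scaling of the libraries. *Kdm2a* made up 66.7% of KDM2 counts in WT (95% Clopper-Pearson interval 63.6% to 69.7%) and 68.6% (64.7% to 72.4%) in the KO-labelled library, with an odds ratio of 1.09 (0.873 to 1.37). *Kdm5a* made up 45.6% (43.2% to 48.1%) and 47.3% (44.6% to 50.1%) of the *Kdm5a* and *Kdm5b* counts, with an odds ratio of 1.07 (0.923 to 1.24). Neither interval left out 1. Among the KDM4 genes, *Kdm4a* held 21.5% (18.9% to 24.2%) in WT and 26.4% (23.2% to 29.8%) in the other library, an odds ratio of 1.31 (1.04 to 1.66). *Kdm4b* held 48.6% and 46.8%, and *Kdm4c* 29.9% and 26.8%, with intervals of the odds ratio that include 1. In all 17 such ratios were computed, without adjustment, and the interval lay above 1 for 6 and below 1 for 3.

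Relatives of the KDM5 and KDM6 genes on the sex chromosomes differed between the libraries. *Kdm5c* and *Kdm6a* lie on X and are known to escape X inactivation, and *Kdm5d* and *Uty* are their Y-linked partners. *Kdm5c* was at 429.1 (WT) and 261.0 (KO-labelled) normalised counts (log2 ratio -0.71, -0.95 to -0.49; exact test, adjusted p = 9.8e-09). *Kdm6a* had 417.9 and 250.5 (-0.74, -0.98 to -0.50; exact test, adjusted p = 5.5e-09). Both passed the adjusted threshold without reaching 2-fold. Of 428 X-linked genes tested, with a median log2 ratio of -0.03, 48 (11.2%) were at or below *Kdm5c*, against 7.15% of all genes. The X-linked genes *Ddx3x* and *Eif2s3x*, with partners *Ddx3y* and *Eif2s3y* on Y, had log2 ratios of -0.003 (-0.12 to 0.11) and -0.48 (-0.64 to -0.33). *Ddx3x* and *Eif2s3x* were named after their values were seen. *Kdm5d* and *Uty* were at 0 counts in WT against 106 each, and so at least 48.0-fold higher in the KO-labelled library, against a floor of 3 counts in the WT library. Both were called higher.

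The Y-linked partner was then added to each X-linked gene. *Kdm5c* and *Kdm5d* together had 429.1 and 384.6 normalised counts (log2 ratio -0.16, -0.36 to 0.05), and *Kdm6a* and *Uty* together had 417.9 and 374.1 (-0.16, -0.37 to 0.05). These pairs are similar in sequence, and how reads were assigned between partners was not tested. Summed over *Kdm5a*, *Kdm5b*, *Kdm5c* and *Kdm5d* the libraries held 1827 and 1889 normalised counts (0.05, -0.05 to 0.14). The share of *Kdm6b* among KDM6 counts depended on whether *Uty* was included. It was 9.81% of *Kdm6a* and *Kdm6b* counts in WT (7.44% to 12.6%) and 23.2% in the other library (18.4% to 28.6%), an odds ratio of 2.77 (1.83 to 4.22), and with *Uty* added to *Kdm6a* the share was 16.8% (13.2% to 21.0%) and the odds ratio 1.86 (1.24 to 2.80).

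**Figure D5:**
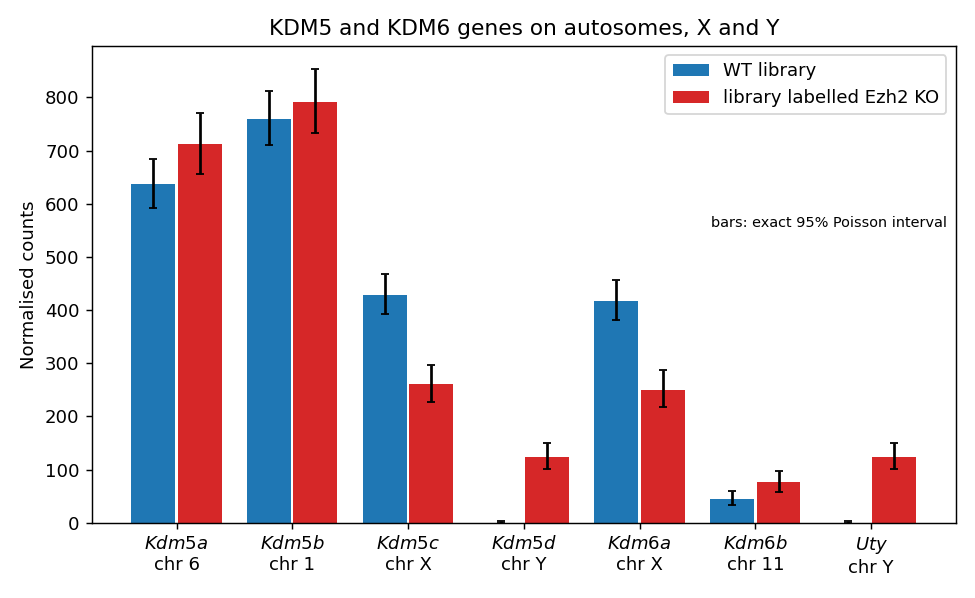
Normalised counts of KDM5 and KDM6 genes with their chromosome, in the WT library (blue) and the KO-labelled library (red); error bars are exact 95% Poisson intervals. *Kdm5c* and *Kdm6a* are at 429.1 and 417.9 in WT and at 261.0 and 250.5 in the KO-labelled library, where *Kdm5d* and *Uty* are at 123.5 each against 0 in WT.

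Of 17 other genes of the demethylase families, 15 passed the expression filter, and 2 were called higher (*Kdm5d* and *Uty*) and 0 lower. The median log2 ratio was 0.18, against -0.13 for the 10 genes above. Without the fold threshold 3 passed on each side. Beside the 4 sex-linked genes these were *Kdm7a*, an H3K9 and H3K27 demethylase, with 160.5 and 249.4 normalised counts (log2 ratio 0.63, 0.35 to 0.93; exact test, adjusted p = 0.00012), and *Jmjd6*, a JmjC protein, with 206.0 and 135.2 (-0.60, -0.94 to -0.28; exact test, adjusted p = 0.0012). *Kdm7a* and *Jmjd6* were named after their values were seen. *Hr* had 0 counts in both libraries, and *Kdm4d* had 8 and 1.

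The methyltransferases that place the same marks were examined beside their erasers. Of 19 such genes 0 were called, and the median log2 ratio was -0.07. The 6 H3K4 writers had a median of 0.26, from *Kmt2b* (-0.64) to *Kmt2c* (0.38, 0.17 to 0.60), and *Kmt2c* was the 1 gene to pass without the fold threshold. The 5 H3K36 writers had a median of 0.08, from *Setd2* (-0.33) to *Whsc1* (0.25). All 6 H3K9 writers had ratios below 0 with a median of -0.28, from *Setdb1* (-0.58, -0.89 to -0.28) to *Ehmt1* (-0.05), and *Setdb1* and *Ehmt2* (-0.45, -0.63 to -0.27), which encodes the H3K9 methyltransferase G9a, passed without the fold threshold. *Ezh1* had 721.7 and 651.4 normalised counts (-0.15, -0.30 to 0.01).

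Ratios of erasers to writers were then formed from raw counts. *Kdm1a* was lower relative to the summed H3K4 writers in the KO-labelled library, with 896 against 1360 counts in WT and 541 against 1102 in the other library, an odds ratio of 0.745 (0.651 to 0.853). *Kdm5a* and *Kdm5b* together gave an odds ratio of 0.978 (0.877 to 1.09), an interval that includes 1. The KDM2 pair relative to H3K36 writers gave 0.840 (0.738 to 0.954). *Kdm3a* relative to H3K9 writers gave 0.965 (0.801 to 1.16), and the KDM4 genes gave 1.18 (1.05 to 1.33) relative to H3K9 writers and 0.976 (0.863 to 1.105) relative to H3K36 writers. *Kdm6b* relative to *Ezh1* and *Ezh2* gave 1.79 (1.21 to 2.67), from 53 against 1007 counts in WT and 65 against 688 in the other library. That ratio counts the targeted gene *Ezh2* among the writers and leaves out *Kdm6a* and *Uty*, so it does not describe the KDM6 genes together. Summed over *Kdm6a*, *Kdm6b* and *Uty*, normalised counts were 463.4 in WT and 449.8 in the other library (log2 ratio -0.04, -0.24 to 0.15). A ratio of that sum to the writers was not computed.

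Protein partners of LSD1 and KDM2B were examined next. Of 12 subunits and DNA-binding partners of the LSD1-CoREST complex, 0 were called, and the median log2 ratio was 0.01, from *Hmg20b* (-0.45) to *Rcor2* (0.46). *Gfi1b* (0.36, 0.19 to 0.53) and *Hdac2* (-0.32, -0.47 to -0.17) passed without the fold threshold. *Rcor1*, the main CoREST scaffold, had 359.6 and 382.2 normalised counts, and *Kdm1a* relative to *Rcor1* gave an odds ratio of 0.771 (0.642 to 0.927). Of 8 subunits of the PRC1.1 complex that holds KDM2B, 0 were called, with a median of 0.04, from *Bcorl1* (-0.16) to *Pcgf1* (0.35). *Kdm2b* relative to *Bcor* gave an odds ratio of 0.776 (0.599 to 1.005), an interval that includes 1.

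Immediate-early genes were listed because *Kdm6b* is known to be induced by signalling and stress. Of 16 such genes tested, 16 had a log2 ratio below 0, 7 were called lower, and the median was -0.88. *Fos* had 13853 and 4892 normalised counts (-1.50) and *Zfp36* 11755 and 6498 (-0.86). Over all genes tested, 6344 of 12588 were below 0 and 2.3% were called lower. Of the 10 demethylase genes, 6 shared the sign of that list, and *Kdm6b* was among the 4 that did not, with *Kdm4a*, *Kdm5a* and *Kdm5b*. A link between these values and any demethylase was not tested.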

How the data were processed

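Both deposited files list gene symbols with whole-number read counts, left unnormalised by the authors. Alignment of single reads to mm10 used TopHat2 2.0.13 and Bowtie2 2.1.0 on the iGenomes annotation. StringTie is named as the source of counts, but 5 closing entries carry htseq-count names, so the counting program and its use of strand are not given in the sources used here. Those entries (56.1% and 56.9% of all values summed, in WT and Ezh2 KO) were left out. A level of 3 counts corresponds to 0.521 and 0.722 CPM.

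Each library was its own group by title. Counts were divided by DESeq2 1.42.0 size factors (R 4.3.3), and log2 ratios used a pseudocount of 1. With no residual degrees of freedom, edgeR and DESeq2 tests could not be fitted. In their place, genes with a mean of at least 1 CPM were tested by an exact binomial test, two-sided and conditional on the summed count, with Benjamini-Hochberg adjustment over 12588 genes, and intervals are exact (Clopper-Pearson, Poisson or conditional odds ratio). Positions and lengths came from GENCODE M21 on GRCm38, which matched 23376 symbols directly and 651 by an older name. The procedure was tested on data simulated with counting error alone, so that test does not cover spread between replicate libraries. Python 3.11.15, scipy 1.17.1 and edgeR 4.0.16 were used. Alternatives were other scalings, pseudocounts, filters, thresholds and assumed spreads, thinning of the WT library, and removal of length and GC trends.

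Genes and lists were chosen with earlier results of these data known. The rule for names took all members, called genes and the highest and lowest ratio of each demethylase, writer and partner list, sex-linked relatives, *Ezh2*, *Ezh1* and *Xist*, and the 2 most abundant genes of each marker list; not every gene it selects is reported. With 2 libraries, likeness of pattern between genes cannot be measured. Protein sequences were not used here.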

Additional observations from a re-analysis of the deposited data

How the results depend on the processing

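Each of the 10 demethylase genes kept the sign of its log2 ratio, and stayed within its 95% interval, under 7 alternatives: TMM, total counts, pseudocounts of 0.5 and 5, thinning, size factors without X and Y, and removal of the length and GC trends. *Kdm6b* ranged from 0.64 to 0.78 and *Kdm1a* from -0.29 to -0.22. The median over the 10 genes ranged from -0.13 to -0.09. No demethylase was called higher or lower under these alternatives, other expression filters, a 1.5-fold threshold, assumed coefficients of variation (CVs) of 0.2 and 0.4, or a rule of 3 robust SDs. Since no demethylase reached 2-fold, settings that kept the 2-fold rule could not have called one, and their result adds no check. Removal of the fold threshold called 1 lower, *Kdm1a*.

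The numbers of all genes called, 353 higher and 290 lower, did depend on these choices. A minimum of 10 CPM gave 96 and 115, a 1.5-fold threshold 626 and 636, no fold threshold 1218 and 1425, CVs of 0.2 and 0.4 led to 41 and 22 and to 8 and 2 respectively, and 3 robust SDs gave 104 and 124. The minimum tests fewer genes, and the CVs were assumed, not measured. With the union of exons as the length, 13 of 20 TPM values left their interval. No paired analysis was possible because there was just 1 library for each genotype, and for the same reason none could be left out. At the lowest depth here, 53 counts for *Kdm6b*, a 2-fold difference lies inside the interval.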
